A study of Homo sapiens with 8 samples.

Results

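The genes described here carried 4 or more ac4C antibody peaks in SiHa cells, a human cervical carcinoma line, and no peak in SiHa cells whose NAT10 gene had been knocked out. They were selected from the deposited peak lists themselves: a gene entered when its Ensembl identifier had at least 4 distinct peaks in the SiHa list and none in the knockout list, on chromosomes 1 to 22, X and MT. The selection gave 339 genes with 1641 peaks, out of 7291 genes with 12924 peaks in the whole SiHa list. Peak number in SiHa and absence from the knockout list therefore define the set and are given as a description, without a test.

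N4-acetylcytidine (ac4C) was measured by capturing RNA with an ac4C antibody and sequencing it beside input RNA. The 8 libraries form 4 groups of 2 biological replicates: input and immunoprecipitated RNA of SiHa cells with intact NAT10, and input and immunoprecipitated RNA of the NAT10 knockout in the same line. The labels do not say whether the knockout line is 1 clone or a pool, or which lesion it carries, and they give no treatment. The deposited values used here are 1 pooled peak list for each population, with a p-value for each peak and no value for a single library. Each p given below is this deposited value of a single peak, as the authors' peak calling gave it, and not a test between populations. The list whose name adds a K to SiHa was read as that of the knockout, which the labels do not spell out. No read depth is given, so nothing below has a replicate check. Intervals of shares are exact (Clopper-Pearson) 95% intervals, and those of medians are 95% intervals taken from the ranked values. They cover only the counting of peaks, gaps or genes. Those over peaks or gaps treat each as independent, although peaks of 1 gene share a transcript and are not replicates. A peak list gives no RNA level: loss of ac4C, less of the transcript and shallower knockout libraries cannot be told apart as reasons for a gene's absence from the knockout list.

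NAT10 is the acetyltransferase that places ac4C on cytidines of ribosomal and transfer RNA, with the help of adaptor RNAs or proteins, and it has been reported to acetylate messenger RNA too. In messenger RNA the mark has been linked to RNA stability and to translation, with different effects reported for sites in the coding region and near the start codon. How widely messenger RNA is acetylated is debated, because antibody capture and chemical sequencing methods have given different answers. A peak in such a list is a stretch where immunoprecipitated reads exceed input by the authors' criteria. It does not mark a single cytidine.

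No genome sequence was used here, so peak sequences are not shown. The sequences below cover transcript starts, the stretches of these genes for which letters were at hand, and are shown because a peak lay on the first bases of the transcript. They are RefSeq windows of GRCh38.p14 from 50 bases before to 30 bases after an annotated start, written 5′ to 3′ on the transcribed strand, with the bases inside the SiHa peak in capitals. DNMBP lies at chr10:99930878-99930957 (minus strand), NFE2L1 at chr17:48048309-48048388 (plus strand), TSC22D1 at chr13:44576301-44576380 (minus strand) and JRKL at chr11:96389963-96390042 (plus strand).
DNMBP: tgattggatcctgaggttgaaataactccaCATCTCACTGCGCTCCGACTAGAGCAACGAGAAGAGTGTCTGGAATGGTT
NFE2L1: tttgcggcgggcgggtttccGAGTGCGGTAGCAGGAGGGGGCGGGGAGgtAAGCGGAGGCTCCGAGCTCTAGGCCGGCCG
TSC22D1: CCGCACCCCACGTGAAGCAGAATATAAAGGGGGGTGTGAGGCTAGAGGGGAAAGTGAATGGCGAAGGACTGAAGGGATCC
JRKL: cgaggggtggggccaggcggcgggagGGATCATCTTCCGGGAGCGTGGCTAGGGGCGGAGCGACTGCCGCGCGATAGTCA

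These were the strongest of the start peaks, with deposited p-values of 2e-73 in DNMBP, 3.2e-63 in NFE2L1, 1.6e-44 in TSC22D1 and 4e-34 in JRKL. In all 4 windows the peak also reached bases upstream of the annotated start, and in TSC22D1 it covered all 80 bases shown. The DNMBP start is an internal one, inside a peak of 1197 bases centred at 59.3% of the gene's span. The TSC22D1 start, at chr13:44576330, also lies inside its gene's span, whose 5′ end is at chr13:44577344. Of 227 genes of the set with a window, 22 (9.69%) had a peak on the first 50 bases after a start. The share was 9.47% among genes with 4 or more SiHa peaks and a knockout peak, and 2.79% among genes with 1 SiHa peak and none in the knockout. A gene with more peaks has more chances of one at a start, and the shares were not adjusted for this. The repeated motif CNNCNNCNN, which has been described around ac4C sites, was searched on the transcribed strand of those 50 bases, where copies may overlap each other. It was present in 13 of the 22 windows (59.1%), against 55.5% of all 35116 RefSeq windows, so its presence does not set these starts apart.

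The share of genes free of a knockout peak differed with the number of SiHa peaks. Over all genes with a SiHa peak, 73.0% had none in the knockout list (5320 of 7291). Among the 608 genes with 4 or more SiHa peaks the share was 55.8% (51.7% to 59.8%), or 339 genes, and the remaining 269 had at least 1 knockout peak. The share was 78.5% for genes with 1 peak, 69.0% with 2, 63.3% with 3, 58.7% with 4 and 62.1% with 5, and lay between 40.0% and 55.6% from 6 to 10 peaks. All 12 genes with more than 10 SiHa peaks, up to 27, had a knockout peak, so the 339 genes end at 10 peaks. Within the set, 175 genes had 4 peaks, 100 had 5, 33 had 6, 14 had 7, 10 had 8, 5 had 9 and 2 had 10. They make up 6.37% (5.73% to 7.06%) of the genes with peaks in SiHa only.

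**Figure D1:**
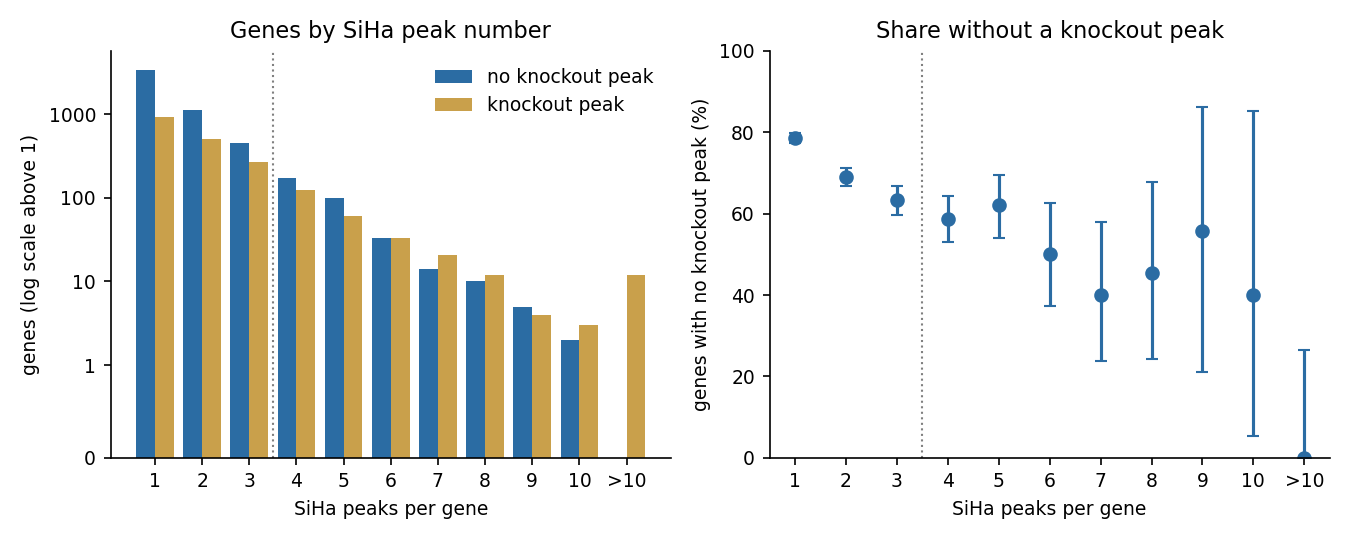
The left panel counts genes by their number of SiHa peaks on a log axis, split into genes without (blue) and with (gold) a knockout peak. The right panel gives the percentage without a knockout peak, with exact 95% intervals; it is 78.5% at 1 peak and 58.7% at 4 peaks, and the dotted line marks the selection at 4.

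Single peaks just inside and just outside the threshold of 4 were alike in size, with a median width of 181 bases in SiHa-only genes with 3 or 4 peaks and 210 with 5, and a median −log10 p of 6.05, 5.60 and 6.69. Sums and maxima over a gene rise with its number of peaks. The 460 SiHa-only genes with 3 peaks covered a median of 663 bases with peaks, the 175 with 4 peaks covered 929 and the 100 with 5 peaks covered 1218. The median strongest peak of a gene stood at −log10 p of 21.4, 31.0 and 46.2 in these 3 classes. The genes with the largest covered length just outside were ITGB1, the integrin beta 1 subunit, with 3022 bases in 3 peaks, FJX1 with 1933 and RBM15B with 1919. Just inside, with 4 peaks, were NRIP1 with 3265 bases, ZNF623 with 2663 and UACA with 2312. Covered length sums peak widths, and all 4 peaks of ZNF623 overlap another of its peaks, so bases there count more than once. With overlapping peaks merged, ZNF623 fell below 4 peaks. Asking for 1 peak fewer gave 799 genes, and asking for 1 more gave 164.

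Most of these genes combined a few very strong peaks with weak ones. The median peak was 210 bases wide (quartiles 180 and 301, range 120 to 2220) and had a −log10 p of 6.05 (quartiles 2.80 and 20.3). The median gene had its strongest peak at −log10 p of 47.2 and its weakest at 2.18. A peak with p above 0.001 occurred in 260 of the 339 genes, whereas every peak had p of 1e-08 or less in 11. The 11 were AFDN, GAS2L3, MAML2, MAN1A2, NFE2L1, PIGC, STEAP3, VCF1, ZNF623 and the unnamed pair ENSG00000058673 and ENSG00000257315. In GAS2L3, PIGC and ZNF623 all 4 peaks overlapped another peak of the same gene, and the unnamed pair overlapped each other at all 7 peaks. These entries therefore do not have as many separate strong sites as peaks. In 35 genes no peak reached p of 1e-08.

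Genes with 4 or more SiHa peaks and a knockout peak, called knockout-positive here, had slightly higher medians. Their median peak was 211 bases wide with a −log10 p of 7.89, and their median strongest peak stood at 61.7. A p listed at 0, the strongest value of the list, occurred in 41 of the 339 genes (12.1%) and in 14.5% of the knockout-positive ones. Against SiHa-only genes with a single peak the median width was 210 bases to 180, and the median −log10 p was 6.05 to 4.72.

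Just over 50% of the peaks carried one of a few recurring p-values. In the SiHa list 31 non-zero p-values, such as 0.027, 0.0066 and 0.0016, each occurred in 50 or more peaks, and 848 of the 1641 peaks (51.7%) had one of them. The share was 39.5% in knockout-positive genes with 4 or more peaks and 47.2% in the whole list. In SiHa-only genes it was 50.1% with 2 or 3 peaks and 53.5% with 1 peak, so it was not particular to the set. Among the 339 genes, peaks on such values had a median width of 181 bases and a median −log10 p of 3.44, and the others had 271 bases and 21.7. In 41 genes all peaks had a recurring value, and only 74 genes had 4 or more peaks without one. The selection thus rests on weak calls in many genes: with peaks of p at 1e-05 or less alone, 89 genes met the rule, and with p at 1e-08 or less, 44 did.

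Overlap with knockout peaks is nearly fixed by the selection, which removes every gene with a knockout peak of its own, and is given as a description. Of the 1641 peaks, 0 were overlapped by a knockout peak of any other identifier on either strand, which allows a share of up to 0.183% when the limit is set at 3 counts. Among the other SiHa-only genes, peaks overlapped on the same strand were 2 of 3648 (0.0548%) in genes with 2 or 3 peaks and 1 of 3387 (0.0295%) in genes with 1 peak. In knockout-positive genes with 4 or more peaks, 228 of 1502 peaks (15.2%) were overlapped, in 175 of the 269 genes. Across the whole spans of the 287 genes with a name, introns included, 2 knockout peaks were found, both on the opposite strand. One of them lay in the span of FILIP1L, a filamin-interacting-like protein, at chr3:100023322-100023502 with a deposited fold enrichment of 10.3.

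Few peaks were centred near the 5′ end of their genes, here and in the whole SiHa list. The centre, here and in positions given below, is the midpoint between a peak's outer ends, introns included. A peak of several blocks that begins near the 5′ end can thus be centred further in. The first COL18A1 peak, of 150 bases in 3 blocks, begins at chr21:45405227, beside the span's start at chr21:45405165, but is centred at 23.2%. The number of such peaks was not counted. Over 1391 peaks of named genes, 44.4% were centred in the last 10% of the RefSeq span, 49.2% in the middle and 6.40% in the first 10%. The share in the first 10% was 5.40% in knockout-positive genes, 8.07% in SiHa-only genes with 1 peak and 6.82% over all genes. In knockout-positive genes with 4 or more peaks 38.8% were in the last 10%, and in SiHa-only genes with 1 peak 37.9%. By distance, the order against 1-peak genes was the other way: 44.6% of these peaks were within 5 kb of the span's end, against 39.1% in knockout-positive genes, 59.8% in SiHa-only genes with 1 peak and 53.3% over all genes. These spans include introns, and exons were not used, so the coding region and the 3′ untranslated region could not be separated. The named genes had long spans, with a median of 87.0 kb against 34.4 kb for all named genes with a SiHa peak, 83.4 kb for the knockout-positive genes and 27.6 kb for SiHa-only genes with 1 peak, so a share of the span and a distance are not the same measure in these sets.

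Peaks of a gene often stood close together. The median gap between neighbouring peaks was 836 bases (quartiles 209 and 6419.8), and 275 of 1302 gaps (21.1%) exceeded 10 kb. These values were 807 bases and 19.0% in knockout-positive genes, and 1016 bases and 22.5% over all genes, so close spacing was not particular to the set. At least 4 peaks lay within 5 kb in 130 genes, and all peaks did in 71. A total of 392 peaks (23.9%, 21.8% to 26.0%) consisted of more than 1 block, with up to 14 blocks in COL18A1. The share was 26.3% in knockout-positive genes, 26.9% in SiHa-only genes with 1 peak and 25.2% over all genes. Such lists write a peak across a splice junction in this form, but exons were not used to check this. The lowercase gt inside the NFE2L1 peak shown above is a break between blocks too short for an intron. All peaks had several blocks in 4 genes, among them EPS8, ITGB4 and NSD3, and none did in 122 genes. In the 4-peak genes the strongest peak was the first from the 5′ end in 36, the second in 48, the following one in 43 and the last in 37, with ties in 11. In knockout-positive genes with 4 peaks the counts in this order were 37, 30, 31 and 20, with ties in 5.

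The genes with the most peaks were MTCL1 and NAV1, with 10 each. MTCL1, a microtubule cross-linking factor, had 4413 bases in peaks, the largest covered length of the set. Its strongest peaks were 420 bases at chr18:8783568-8783987 and 630 bases in 3 blocks at chr18:8819187-8825223, both listed at a p of 0, and its weakest was 151 bases with p of 0.027. A peak of 301 bases with p of 1e-162 lay at 1.13% of the span, so MTCL1 had strong peaks at either end and in the middle. NAV1, a neuron navigator protein that tracks microtubule ends, had 3337 bases in peaks. One peak of 421 bases at 29.2% of the span was listed at a p of 0, a second of 780 bases at 85.0% had p of 1e-307, and 4 peaks stood side by side between 97.6% and 98.2%.

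Among the 5 genes with 9 peaks, DNMBP, a scaffold that activates the GTPase CDC42, had its widest peak, 1197 bases, inside the gene at the internal start shown above. FLRT2, a leucine-rich repeat transmembrane protein of cell adhesion, had 5 peaks between 73.4% and 75.1% of its span, the strongest 600 bases wide with p of 7.9e-76. TRIP12, an E3 ubiquitin ligase, had 1 peak of 480 bases listed at a p of 0. That peak had 3 blocks over chr2:229859239-229879999 and was centred at 33.6% of the gene's span. A second strong one, of 571 bases with p of 6.3e-46, was centred at 97.2%. The other TRIP12 peaks had p between 2e-22 and 0.027.

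PHLDA1 and PRKCA show how different genes with equally many peaks can be. PHLDA1, a pleckstrin homology-like protein whose transcript responds to growth factors, had 9 peaks spread from 12.6% to 96.0% of a short span. The first 2 were strong, 451 bases with p of 1e-103 and 541 bases with p of 1e-180, and the other 7 had p between 4e-12 and 0.027. PRKCA, the alpha isoform of protein kinase C, had 9 peaks of which 5 lay within 5 kb near the end of the gene, and all 9 carried recurring p-values. Its strongest, of 271 bases, had p of 4.1e-10, so PRKCA had many peaks and no strong one.

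TSC22D1, KAT6A and ANKRD33B followed with 8 peaks each. TSC22D1, a leucine zipper regulator of transcription first known as a TGF-beta-stimulated gene, had peaks in 2 clusters. At 0.762% to 2.64% of the span lay 4 peaks of 300, 569, 1048 and 599 bases, with p of 1e-256 in the one of 1048 bases, and at 97.2% to 98.6% lay 3 peaks, of which the one of 510 bases was listed at a p of 0. KAT6A, a histone acetyltransferase, had a peak of 869 bases with p of 1e-291 at 2.38% of its span and one of 719 bases with p of 1e-228 at 97.7%. ANKRD33B, an ankyrin repeat protein, had all 8 peaks from 91.2% to 99.2% of the span, led by 479 bases with p of 1e-198 and 300 bases with p of 1e-129.

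**Figure D2:**
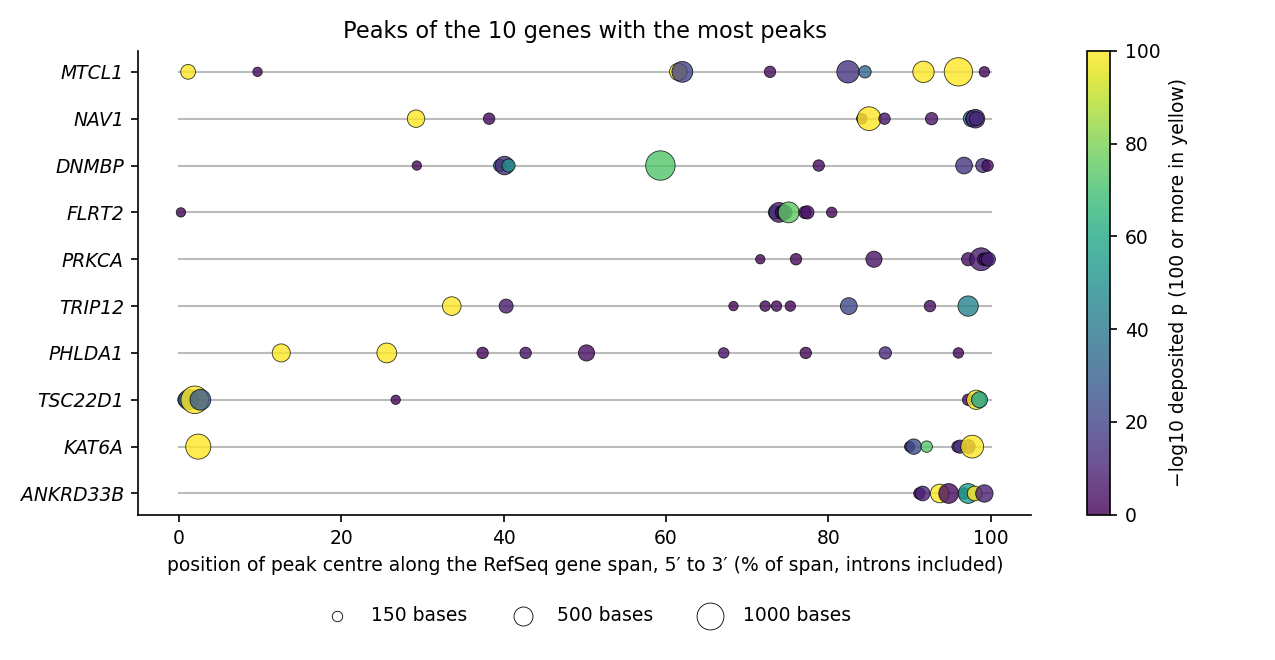
Each circle is a SiHa peak of 1 of the 10 genes with the most peaks, placed by its centre along the RefSeq span from 5′ to 3′ in percent; its area follows the peak's width in bases and its colour −log10 p. MTCL1, TSC22D1 and KAT6A have strong peaks near both ends, ANKRD33B only from 91.2% onward, and PRKCA has 9 dark (weak) peaks.

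Among genes with a name, the widest peaks listed at a p of 0 belonged to genes of several kinds. PRICKLE1, a planar cell polarity protein, had a peak of 2220 bases in 3 blocks at chr12:42459096-42464948, the widest of the set, and 5 others of 180 to 271 bases. PRSS23, a secreted serine protease, had 1440 bases at chr11:86800613-86809031 and a further 390 bases, both listed at a p of 0. PFKFB3, which makes the allosteric activator of phosphofructokinase in glycolysis, had an unbroken peak of 1320 bases at chr10:6233182-6234501.

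Others in this group were scaffold, receptor and cytoskeletal genes. AKAP12, a scaffold of protein kinase A, had 5 peaks from 92.3% to 96.5% of its span, with 1079 bases listed at a p of 0, 599 bases with p of 1e-115 and 1078 bases with p of 1e-112. NRIP1, a corepressor of nuclear receptors, had 3 peaks of about 1 kb each, 1018 bases listed at a p of 0, 958 with p of 1e-221 and 1108 with p of 1e-222, and 1 of 181 bases. NRP1, a co-receptor for semaphorins and VEGF, had 1018 bases in 4 blocks at a p of 0 beside 4 peaks of 151 to 210 bases. In MYLK, the myosin light chain kinase, KRT80, a type II keratin, and CHST3, a chondroitin sulfotransferase, the peaks listed at a p of 0 were 841, 810 and 689 bases wide.

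Genes were also read through 19 lists of pathways and cell types. Since the lists were written with earlier results of these data in view, their shares describe the lists and support nothing. The share of members among all named genes with a SiHa peak was 4.91% (287 of 5847), and 47 of the 453 listed genes with a SiHa peak (10.4%) were members. Genes with 4 or more SiHa peaks, whatever the knockout list held, were 8.77% of all named genes, and a list rich in them will also be rich in members.

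**Figure D3:**
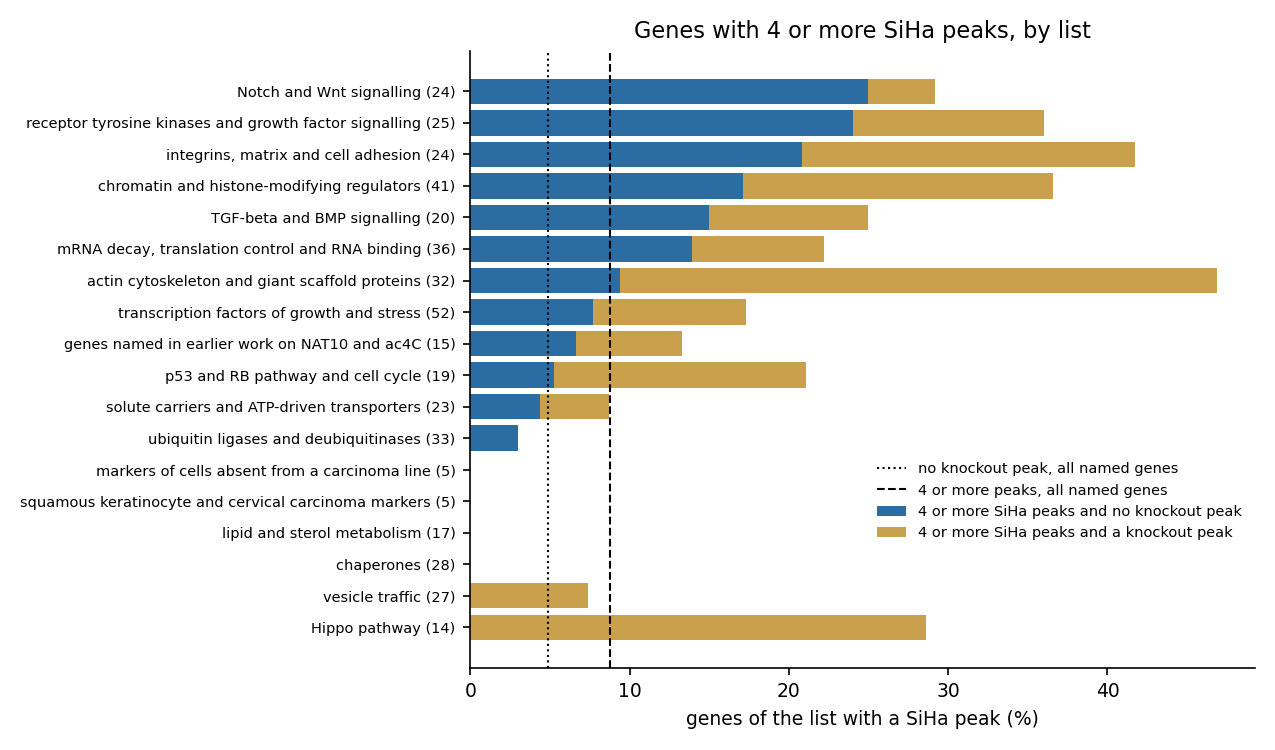
Bars give, for each list described here, the percentage of its genes with a SiHa peak (number in brackets) that had 4 or more peaks, split into those without (blue, the genes described here) and with (gold) a knockout peak; the dotted and dashed lines mark 4.91% and 8.77% over all named genes. Notch and Wnt signalling stands at 25.0% in blue, and actin and giant scaffold genes at 9.38% in blue of 46.9% in all.

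Receptor tyrosine kinases carry growth factor signals into the cell, and adaptors and feedback inhibitors act below them. Of 25 such genes with a SiHa peak, 6 (24.0%) were members: EGFR, MET, IRS1, SPRY4, SPRY2 and DUSP4. EGFR, the epidermal growth factor receptor, had 6 peaks from 94.5% to 99.7% of its span, 151, 510, 570, 181, 390 and 181 bases wide from 5′ to 3′. Their p-values were 2.2e-05, 1e-288, 1e-152, 0.00012, 1.6e-29 and 4.3e-10, so the strength sat in 2 neighbours, which lie side by side at chr7:55205428-55205937 and chr7:55206147-55206716.

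MET, the receptor for hepatocyte growth factor, had its widest peak near the 5′ part, 960 bases with p of 1e-199 at 21.8% of the span, and another strong one of 660 bases with p of 1e-150 at 99.7%. IRS1, the insulin receptor substrate, had 7 peaks, 6 of them between 1.97% and 6.63% of its span, with p of 1.3e-70 and 2.5e-56 in the strongest. SPRY4, a feedback inhibitor of receptor signalling, had 6 peaks and all carried recurring p-values, from 7.9e-13 to 0.00036. EGFR and MET were thus strong at single sites, whereas SPRY4 was not.

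Of 24 Notch and Wnt genes with a SiHa peak, 6 (25.0%) were members. Among ligands, JAG1, which activates Notch receptors, had 4 peaks, 1 of 659 bases listed at a p of 0 and 3 with p from 8.3e-05 to 0.027. WNT7B, a secreted Wnt, had 5 peaks between 96.1% and 99.8% of its span, and 3 of them had p of 1e-32, 1e-33 and 6.3e-22. JAG1 thus rests on 1 strong peak and WNT7B on several.

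Among receptors, LRP6, a Wnt co-receptor, had 4 peaks, the strongest of 360 bases with p of 3.2e-96. That peak had 2 blocks at the ends of chr12:12244298-12266682, and its centre, at 7.65% of the gene's span, lies in the gap between them. Nuclear effectors were MAML2, a Notch coactivator, and BCL9L and BCL9, coactivators of beta-catenin. MAML2 had 4 peaks with p of 1.3e-37, 4e-12, 3.2e-27 and 1.4e-10, all below 1e-08. BCL9L had 5, the strongest of 661 bases with p of 2e-37, and was the only member among 15 genes with a SiHa peak on a list drawn from earlier NAT10 studies. Of 20 TGF-beta and BMP genes with a SiHa peak, 3 (15.0%) were members: the receptor TGFBR2, whose strongest peak had p of 1.6e-58, the signal transducer SMAD5 at 1.3e-17 and the ubiquitin ligase SMURF2 at 7.9e-13.

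Chromatin regulators contributed 7 of 41 (17.1%), among them KAT6A, ASXL2, NSD1, CHD6, NSD3 and ARID2. ASXL2, a polycomb-associated protein, had 5 peaks between 90.8% and 95.2% of its span, with 330 bases at p of 1e-234 and 450 bases at p of 2.5e-62. NSD1, a histone H3 lysine methyltransferase, had 5 peaks whose strongest, 241 bases each, had p of 7.9e-33 and 7.9e-27. CHD6, a chromatin remodeller, had 1 strong peak of 241 bases with p of 1e-56 at 39.3% and 4 others with p from 4e-11 to 0.017 beyond 90%.

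Of 24 integrin, matrix and adhesion genes, 5 (20.8%) were members, among them CDH2, ITGB4, CD44 and COL4A1. CD44, the hyaluronan receptor, had 4 peaks, of which 330 bases in 2 blocks at chr11:35223302-35229439 were listed at a p of 0. CDH2, N-cadherin, had 6 peaks, the strongest of 211 bases with p of 5e-73. ITGB4, the partner of integrin alpha 6 at hemidesmosomes, had 5 peaks, each in several blocks, and the strongest reached only p of 2.4e-07.

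Of 32 actin and giant scaffold genes with a SiHa peak, 15 had 4 or more SiHa peaks and 3 (9.38%) were members; 13 of the 32 had no knockout peak, whatever their peak number. MYH9, the heavy chain of non-muscle myosin IIA, had 8 peaks, 7 of them with p of 2.5e-07 or less, led by 331 bases with p of 1e-181 and 390 with p of 1e-133. SVIL, the actin-binding protein supervillin, had 7 peaks, led by 480 bases with p of 1e-315. The other member was AKAP12, described above.

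**Figure D4:**
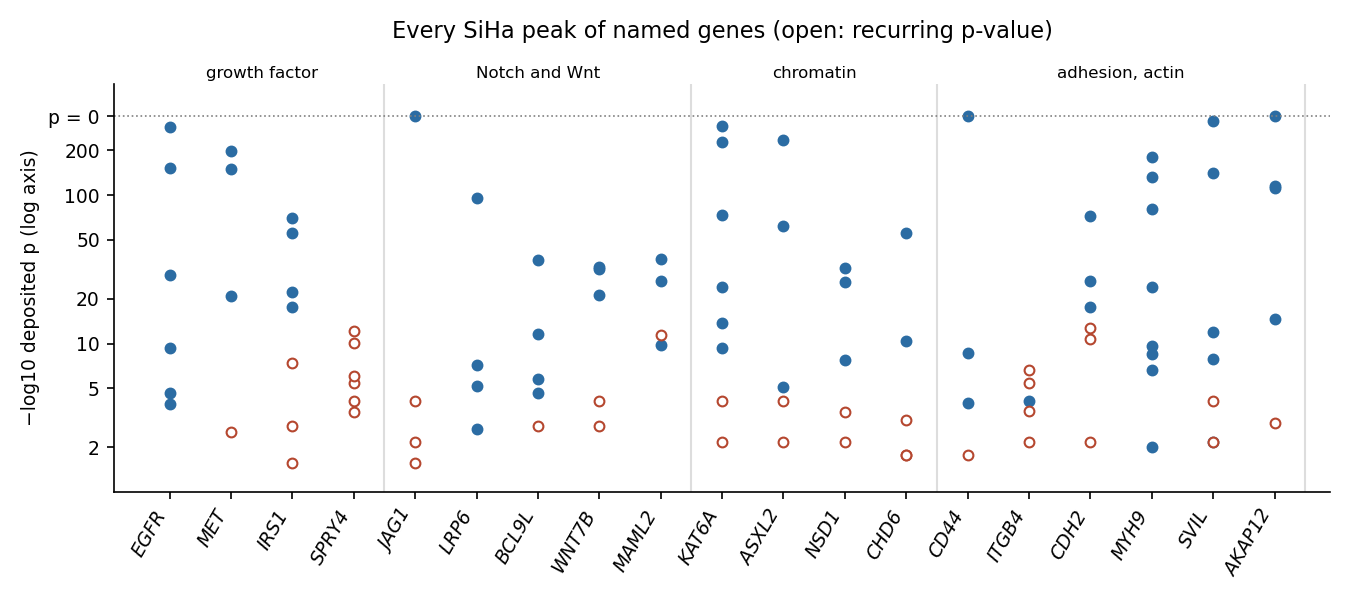
Each point is a SiHa peak of a named gene, placed by −log10 of its deposited p on a log axis, with p listed as 0 on the dotted line; open points carry one of the 31 recurring p-values. JAG1, CD44 and AKAP12 each have a peak on the dotted line, while all 6 points of SPRY4 are open.

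Genes that act on messenger RNA itself made up 5 of 36 (13.9%): UPF2, PAN3, EIF3A, EIF4G1 and LARP1. UPF2, a core factor of nonsense-mediated decay, had 361 bases with p of 1e-297 at 6.41% of its span and 271 bases with p of 6.3e-85 at 99.3%. EIF3A, the largest subunit of initiation factor eIF3, had 271 bases listed at a p of 0, 780 with p of 1e-169 and 420 with p of 1e-132. EIF4G1, the scaffold of the cap-binding complex, had 3 peaks between 32.5% and 35.6% and 1 of 360 bases with p of 5e-74 at 98.1%. PAN3, a subunit of a poly(A) nuclease, reached p of 1.3e-43 in 1 of 5 peaks.

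Transcription factors of growth and stress contributed 4 of 52 (7.69%). JUN, a subunit of AP-1, had 4 peaks, of which 271 bases at chr1:58782977-58783247 and 631 bases at chr1:58781718-58782348 were listed at a p of 0. FOSL2, another AP-1 subunit, had 899 bases with p of 1.3e-48. E2F3, a cell cycle transcription factor, had 360 bases with p of 1e-149, and RREB1, a zinc finger factor downstream of Ras, had 480 bases with p of 1e-241.

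Several lists held few or no members. The share over all named genes was 4.91%, and in lists this small such a share also gives few. TRIP12 was 1 of 33 ubiquitin ligases and deubiquitinases (3.03%), SLC7A1, a cationic amino acid transporter whose strongest peak had p of 1e-231, was 1 of 23 transporters (4.35%), and WEE1, the kinase that restrains entry into mitosis, was 1 of 19 p53, RB and cell cycle genes (5.26%). No member was found among 28 chaperones or 17 genes of lipid and sterol metabolism with a SiHa peak, in which no gene had 4 peaks. Hippo pathway genes had no member among 14, although 4 of these genes had 4 or more SiHa peaks, and vesicle traffic genes had none among 27, with 2 such genes. Squamous and cervical carcinoma markers had a SiHa peak in 5 of 24 genes and markers of cell types absent from a carcinoma line in 5 of 24, with no member in either. Peaks do not measure expression, so these lists do not check the identity of the cells.

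NAT10 itself was not a member: ENSG00000135372 had 1 SiHa peak, of 359 bases in 3 blocks at chr11:34142274-34146283 with p of 5e-37, and 0 knockout peaks.

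Some identifiers do not stand for separate transcripts. In 18 of the 339 genes, 42 peaks overlapped a peak listed under another identifier. ENSG00000058673 and ENSG00000257315 on chromosome 1 shared all 7 of their peaks by overlap and count as 2 genes. On chromosome 5, ENSG00000253767, ENSG00000253953 and ENSG00000276547 overlapped one another. In 15 genes peaks of the same gene overlapped each other, as in ZNF623, where all 4 did. With overlapping peaks of a gene merged first, 326 of the 339 genes still met the rule.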

How the data were processed

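Immunoprecipitated and input RNA of SiHa and NAT10-knockout SiHa cells was sequenced with a stranded mRNA kit, per the labels' protocols. FastQC 0.11.7 and build GRCh38 are named in the submitters' processing notes; for the aligner, peak caller, annotation and handling of replicates the sources used here give nothing. The authors deposited a p-value for each peak under the heading score, and for the knockout list also 2 log-scaled scores, of p and of the false discovery rate, and fold enrichment as a ratio of unstated reference. All of these were used within 1 list only. Read depth is unknown.

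Of 12928 SiHa lines, 1 repeated line and 3 peaks off the chromosomes used were dropped; of 4559 knockout lines, 3 were dropped, which left 4556 peaks in 3725 genes. Width is the sum of a peak's blocks. Covered length is the sum of the widths of a gene's peaks, so bases in overlapping peaks count more than once. Overlap means at least 1 shared block base. The files do not pair identifiers with names, so a name was given where at least 90% of an identifier's peak bases lay in a single same-strand RefSeq span (GRCh38.p14) that no other identifier contested: 7217 of 9045 identifiers (79.8%), and 287 of the 339 members. Such names are less certain than those of an annotation. Sequences are RefSeq promoter windows.

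The members, the 19 gene lists and the tests were chosen with earlier results of these data known. Genes were named by rule, passing over members without a name: the 10 members with the most peaks, the 10 with the largest covered length, the 10 with the strongest single peak (ties by its width), up to 4 members of each list, NAT10, and the 3 of largest covered length on either side of the threshold. Other genes named were chosen after their values were seen. The planned analyses of peak sequence, exons and protein length need a genome, exons and proteins that were not used here. Scripts ran in Python 3.11.15 with pandas 2.3.3 and scipy 1.17.1 and were checked on simulated peaks. Alternatives were stricter p-values, other peak merging, other thresholds, overlap in place of identifiers, a reduced SiHa list, naming without strand, and 2 settings chosen after seeing the data. A few items are not reported here.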

Additional observations from a re-analysis of the deposited data

How the results depend on the processing

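With no replicate values there was no replicate to leave out. No paired analysis was possible because each population has 1 pooled peak list and no library has values of its own. The reported values are 339 genes, 1641 peaks, 55.8% of genes with 4 or more peaks free of a knockout peak, 6.37% of SiHa-only genes with 4 or more peaks, and medians of 210 bases (181 to 211) in width, 6.05 (5.51 to 6.72) in −log10 p and 836 bases (688 to 985) in gap, 23.9% of peaks in several blocks and 47 listed genes. Values that moved are given here in that order; the cause was not tested beyond what each setting removes.

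SiHa peaks with p of 1e-05 or less gave 89 genes, 395 peaks, 47.8%, 2.76%, 300 bases in width, −log10 p of 19.6, a gap of 652 bases and 14 listed genes. With p of 1e-08 or less these were 44, 204, 41.5%, 1.68%, 315 bases, 30.4, 662 bases and 7. With only the strongest SiHa peaks, as many as the knockout list holds, they were 30, 138, 40.0%, 1.37%, 360 bases, 42.5, 628 bases and 5, with 27.5% of peaks in several blocks. Without the peaks on recurring p-values, a setting chosen after seeing the data, they were 74, 333, 42.3%, 2.44%, 271 bases, 21.3 and 14, with 26.4% in several blocks.

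Merging peaks within 100 bases moved the share of SiHa-only genes to 5.06%, peaks in several blocks to 28.6% and the gap to 1247 bases. A knockout false discovery rate of 0.05 or less moved 55.8% to 61.2%. Asking for 3 or more peaks gave 799 genes, 3021 peaks, 59.9%, 15.0% and 81 listed genes, and for 5 or more, 164, 941, 3.08% and 24, with 26.0% in several blocks. Setting peaks against each other by place and not by identifier gave 71.2% when no overlap was allowed; when overlap of under 50% of both peaks was allowed, it gave 531 genes, 2695 peaks, 87.3%, 7.69% and 91 listed genes.

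Of the 110 main results and settings compared, 57 stayed within their limits and 53 moved. Limits for the counts were wide, so staying within them does not mean that a count was unchanged from 339 genes and 1641 peaks. Counted as staying were 269 genes with 1285 peaks when peaks within 100 bases were merged. So were 433 genes with 2102 peaks when no overlap with a knockout peak was the rule. Of the 57 genes named by rule, 26 met the rule at p of 1e-05, 15 at 1e-08, 12 in the reduced list and 19 without recurring p-values.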

Other observations

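Zinc finger genes were present in numbers close to the share over all genes. Of 241 named ZNF genes with a SiHa peak, 15 (6.22%) were members, among them ZNF148, ZNF281, ZNF292, ZNF318, ZNF407 and ZNF827, against 4.91% over all named genes. Solute carrier genes had 2 members of 110 (1.82%), SLC7A1 and the folate transporter SLC19A1. Mitochondrial ribosomal protein genes had 0 of 35, and cytosolic ribosomal protein genes had 1 of 37, RPL7A. These families were chosen after the data were seen.

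RPL7A had 4 peaks in a span of 3.21 kb, which together covered 26.2% of it. The strongest, of 240 bases in 2 blocks at chr9:133350576-133350937 with p of 1e-145, also spans SNORD36C, a box C/D small nucleolar RNA hosted by the gene. A peak of 181 bases in WEE1 with p of 8.9e-09 overlaps the annotated snoRNA LOC124902827, and a peak of 151 bases in ENSG00000224078 with p of 0.0016 contains SNORD116-20. Whether the reads came from the host or the small RNA was not tested.

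By chromosome, the members' share of SiHa genes (339 of 7291 in all) was highest on chromosome 21 at 12.1% (7 of 58) and, apart from the mitochondrial genome with 0 of 14, lowest on chromosome 19 at 2.12% (10 of 472).

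The widths of 1587 peaks (96.7%) lay within 1 base of a multiple of 30, so width moves in steps of 30 bases.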
